A study of Mus musculus with 16 samples.

Results

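This account follows 10 genes of white adipocyte differentiation and lipid storage, Pparg, Cebpa, Adipoq, Lpl, Cd36, Fabp4, Plin1, Plin4, Cidec and Aqp7, through mouse rotator cuff muscle. They were taken by symbol from a count table of 11710 genes, all 10 were found, and all 10 passed the filter on low counts. The muscle is given as infraspinatus in the description of the series and as supraspinatus in the labels of its samples, so which of them was taken is unclear. Messenger RNA was measured by RNA sequencing in 16 libraries that form 4 groups of 4. The groups cross 2 inbred strains, C57BL/6J (BL6), a widely used strain, and MRL/MpJ (MRL), whose mice close certain wounds unusually well, with a tenectomy and denervation of the muscle (operated) or no operation (unoperated control). The labels name no transgene or drug, and age and the time after surgery were not given in the sources used here. Libraries of a group bear replicate numbers 1 to 4, and nothing states that each came from another animal, so p-values measure the spread between these libraries.

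White adipocytes arise from mesenchymal precursors, which in muscle are the fibro-adipogenic progenitors. The nuclear receptor PPARγ and the factor C/EBPα switch on each other and the genes of the mature fat cell. Those genes include the hormone adiponectin, the enzymes and carriers that bring in fatty acids, and the coat proteins of the lipid droplet. Muscle that has lost its tendon or its nerve is known to collect fat, and rotator cuff muscle is a standard example. Several of the 10 genes are also made by other cells of muscle: Lpl and Cd36 by muscle fibers, Cd36 and Fabp4 by capillary endothelium, and Plin4 by muscle fibers. In whole muscle, more cells of a type and more RNA per cell cannot be told apart.

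Coordinates are those of GENCODE M21 on GRCm38. Pparg (ENSMUSG00000000440) lies at chr6:115360951-115490399 on the plus strand, Cebpa (ENSMUSG00000034957) at chr7:35119293-35121928 on the plus strand, and Adipoq (ENSMUSG00000022878) at chr16:23146536-23158028 on the plus strand. Lpl (ENSMUSG00000015568) lies at chr8:68880491-68907448 on the plus strand, Cd36 (ENSMUSG00000002944) at chr5:17781690-17888801 on the minus strand, and Fabp4 (ENSMUSG00000062515) at chr3:10204088-10208576 on the minus strand. Plin1 (ENSMUSG00000030546) lies at chr7:79720218-79732903, Plin4 (ENSMUSG00000002831) at chr17:56100591-56109803, Cidec (ENSMUSG00000030278) at chr6:113424634-113435760 and Aqp7 (ENSMUSG00000028427) at chr4:41033074-41048139, all on the minus strand. Each value counts reads assigned to the whole gene. Exons of Plin4 overlap those of Hdgfl2 on the other strand, and exons of Cebpa overlap an antisense gene that is not in the table. Whether strand was used in counting is not stated, so reads of these pairs cannot be told apart.

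Cebpa, Adipoq, Plin1 and Cidec varied together among the libraries, as described below, and their promoters are shown for that reason. Each is a RefSeq window of GRCm38.p6 from 250 bases before to 50 bases after the start of a transcript, printed from 5′ to 3′ of the gene. Capitals mark matches to 4 motifs: TATAAA on the plus strand (TATA box), CCAAT on both strands, TTGCNNAA on both strands (a pattern bound by C/EBP factors) and, on both strands, AGGNCA 2 times in a row with 1 base between (a direct repeat of the kind bound by PPAR-RXR). None of these patterns lies within another. The Cidec window is 1 of 2 in that table. The windows are chr7:35119043-35119342 on the plus strand for Cebpa, chr16:23146286-23146585 on the plus strand for Adipoq, chr7:79732727-79733026 on the minus strand for Plin1 and chr6:113434715-113435014 on the minus strand for Cidec.
Cebpa: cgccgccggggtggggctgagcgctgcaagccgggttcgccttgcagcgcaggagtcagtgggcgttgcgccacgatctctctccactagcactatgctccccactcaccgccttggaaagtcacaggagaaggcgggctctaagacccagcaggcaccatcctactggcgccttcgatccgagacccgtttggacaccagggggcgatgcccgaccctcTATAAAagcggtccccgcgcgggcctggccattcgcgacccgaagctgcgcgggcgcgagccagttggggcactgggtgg
Adipoq: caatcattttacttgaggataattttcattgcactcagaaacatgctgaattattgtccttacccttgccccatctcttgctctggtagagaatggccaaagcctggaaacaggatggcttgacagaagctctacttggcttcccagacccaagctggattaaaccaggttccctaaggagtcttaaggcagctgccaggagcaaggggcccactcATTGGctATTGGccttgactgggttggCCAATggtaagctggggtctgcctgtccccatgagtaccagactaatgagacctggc
Plin1: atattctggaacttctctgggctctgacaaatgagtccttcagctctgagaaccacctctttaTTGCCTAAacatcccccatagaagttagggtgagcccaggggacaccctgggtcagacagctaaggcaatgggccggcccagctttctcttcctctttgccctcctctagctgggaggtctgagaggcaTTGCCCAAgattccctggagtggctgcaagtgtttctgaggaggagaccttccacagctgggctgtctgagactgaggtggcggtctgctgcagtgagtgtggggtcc
Cidec: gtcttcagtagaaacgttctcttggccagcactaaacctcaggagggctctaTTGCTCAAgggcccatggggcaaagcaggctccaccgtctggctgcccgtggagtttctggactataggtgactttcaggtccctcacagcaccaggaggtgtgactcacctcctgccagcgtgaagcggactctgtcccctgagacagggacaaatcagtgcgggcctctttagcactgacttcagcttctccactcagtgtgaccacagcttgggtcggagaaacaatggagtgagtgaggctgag
Cebpa held TATAAA 30 bases before its start, Adipoq held CCAAT 3 times, 1 of them on the plus strand, and Plin1 held TTGCNNAA 2 times and Cidec 1 time. Windows were listed for 8 of the 10 genes, 12 in all. CCAAT was found in those of 4 genes (Pparg, Adipoq, Cd36 and Plin4), TTGCNNAA in those of 3 (Pparg, Plin1 and Cidec), TATAAA in 1 and the direct repeat in 0. Over all 32851 windows of the table the shares were 37.4% for CCAAT, 10.8% for TTGCNNAA, 8.32% for TATAAA and 0.381% for the direct repeat. Those shares count windows, whereas the figures for the 8 genes count genes, some with several windows, so they are not like measures. No motif was thus shared by the 4 printed promoters, and a match or its absence describes only these letters in these windows.

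Total counts per library ranged from 24323862 to 43552964, and 3 counts, the smallest level taken as measurable, correspond to 0.0718 to 0.122 CPM (counts of a gene among 1000000 in its library). Counting error is all that such a floor covers. The lowest count of any of the 10 genes was 39, for Plin1. Levels below are CPM on library sizes scaled by edgeR's TMM factors. Mitochondrial genes took 10.97 to 14.2% of the counts in unoperated libraries and 17.4 to 24.9% in operated ones, except 11.8% in replicate 4 of operated MRL. Genes of the muscle fiber were abundant in every library, with 10 markers summing to 53748 CPM or more. Besides that library, operated BL6 replicate 4 and unoperated MRL replicate 1 stood apart from their groups, with the marker sums given at the end. Where leaving out replicate 4 of both operated groups moved a surgery fold by over 1.5 times or ended its call, the value without them is given too, a choice made after their values were seen.

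**Figure D1:**
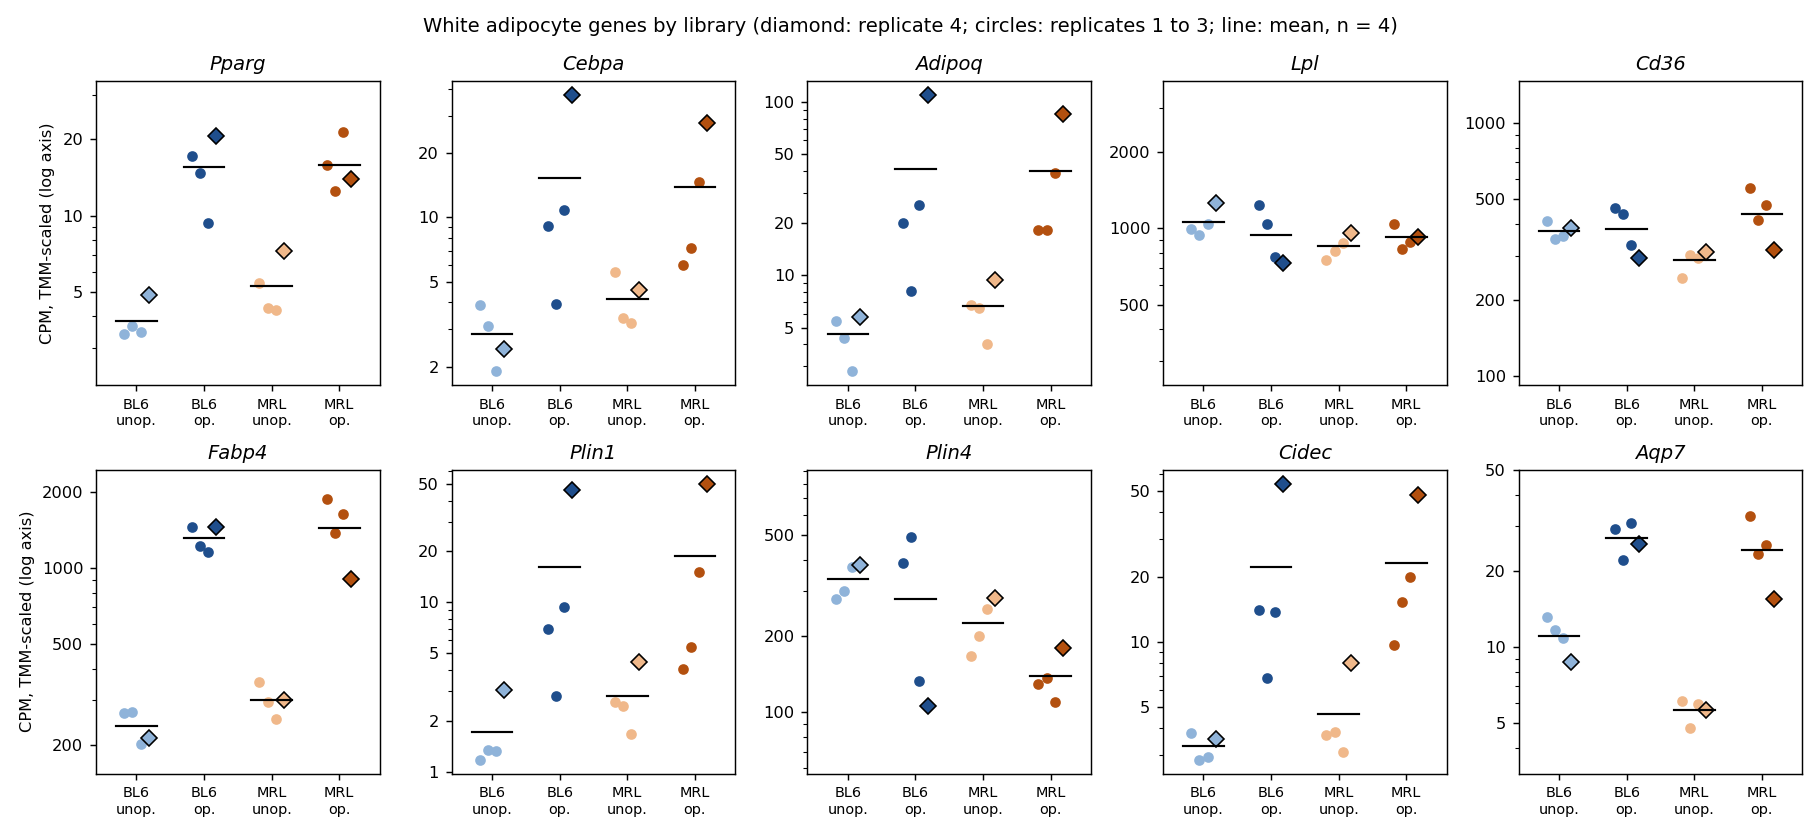
CPM of each of the 10 genes in each library on a log axis, by strain and surgery (4 libraries per group; diamonds are replicate 4, circles replicates 1 to 3, lines the group means). Pparg, Fabp4, Aqp7, Adipoq, Cidec and, narrowly in BL6, Cebpa are higher in every operated library than in every unoperated library of the same strain. The highest levels of Cebpa, Adipoq, Plin1 and Cidec are those of replicate 4 of both operated groups.

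Surgery in BL6 was followed by a rise of 7 of the 10 genes, Pparg, Cebpa, Adipoq, Fabp4, Plin1, Cidec and Aqp7, and by a fall of 0. A call here is a Benjamini-Hochberg adjusted p under 0.05 over 11709 genes in the quasi-likelihood test of edgeR. Of all genes tested, 35.1% were called higher and 32.8% lower in that comparison. In MRL 8 of the 10 rose, the same 7 and Cd36, and 0 fell, where 22.3% of all genes were called higher and 22.7% lower. Every operated library lay above every unoperated one for 6 of the 10 genes in BL6, against 27.5% of all genes, and for 7 of the 10 in MRL, against 17.0%. Cebpa is among the 6 in BL6 only by 3.912 CPM against 3.905 CPM. The median log2 fold change of the 10 genes was 2.23 in BL6 and 1.92 in MRL, beside 0.04 and 0.01 over all genes tested.

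**Figure D2:**
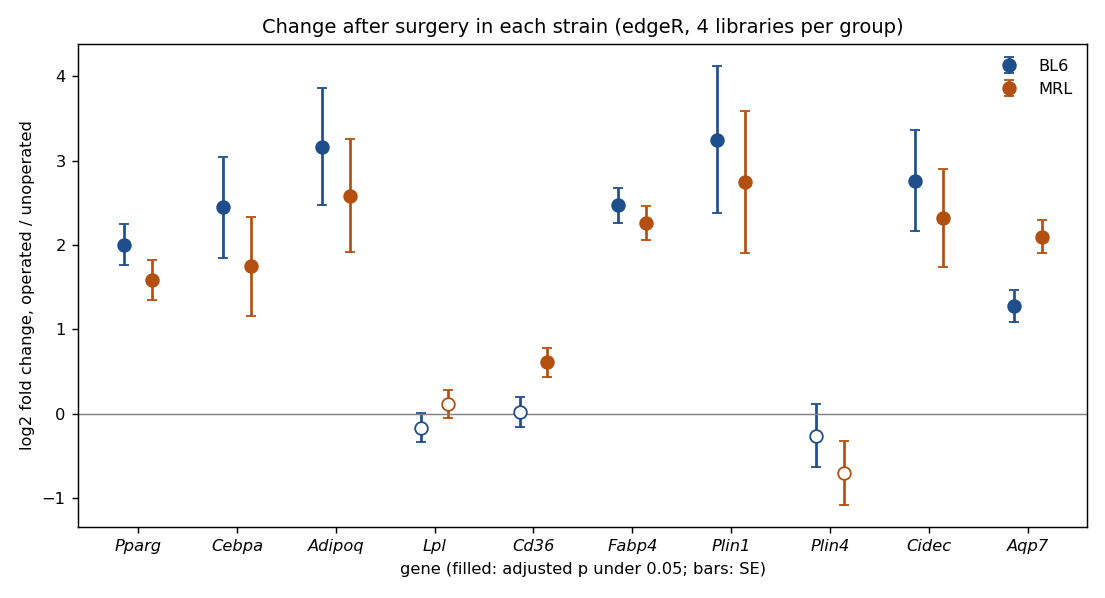
Log2 fold change, operated over unoperated, of each gene in BL6 and MRL from edgeR. Bars are standard errors derived from the F statistic of the test, and filled points have an adjusted p under 0.05. Plin1 and Adipoq have the highest points and the widest bars, Fabp4 and Aqp7 have narrow bars, and Lpl and Plin4 are open in both strains.

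Pparg, the nuclear receptor that drives adipocyte differentiation, was counted at 3.42, 3.66, 3.49 and 4.84 CPM in unoperated BL6 (replicates 1 to 4) and at 17.3, 14.7, 9.38 and 20.6 CPM in operated BL6. All operated levels exceeded all unoperated ones, and the lowest operated library, replicate 3, was still clear of the highest unoperated one. By edgeR this was a log2 fold change of 2.01 (standard error, SE, 0.25, adjusted p = 2.01e-05). Each SE from edgeR was derived from the F statistic of the test. In MRL the levels were 5.41, 4.32, 4.23 and 7.23 CPM without surgery and 15.8, 12.5, 21.3 and 14.004 CPM with it. Here too the groups did not overlap. The MRL log2 fold change was 1.59 (SE 0.24, edgeR adjusted p = 0.000660).

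Cebpa encodes C/EBPα, the partner of PPARγ that maintains the mature state. It stood at 3.91, 3.11, 1.90 and 2.41 CPM in unoperated BL6 and at 9.12, 3.91, 10.9 and 37.6 CPM in operated BL6. Replicate 4 was 3.45 times the next highest operated library, and replicate 2 lay level with the highest unoperated library. Its log2 fold change was 2.45 (SE 0.60, edgeR adjusted p = 0.00224), and without replicate 4 of both operated groups it was 1.49 (adjusted p = 0.00305). In MRL, Cebpa went from 5.53, 3.37, 3.19 and 4.55 CPM to 6.01, 7.21, 14.7 and 27.8 CPM. The groups lay close but did not overlap, and replicate 4 was again highest. edgeR gave a log2 fold change of 1.75 (SE 0.58, adjusted p = 0.0244). That call was lost in 6 of 17 alternatives, for example with limma voom (adjusted p = 0.0602) and without operated MRL replicate 4 (1.16, adjusted p = 0.0975), whereas without replicate 4 of both operated groups the adjusted p was 0.0144.

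The other adipogenic transcription factors had calls in both directions. All 15 on the list were analysed, the 2 above included. In BL6 7 were called higher and 4 lower, beside 35.1% and 32.8% of all genes tested. In MRL 5 were called higher and 4 lower, beside 22.3% and 22.7%. The counts of lower calls are not far from these shares. Cebpb, an early inducer of both genes, rose in BL6 by 0.78 on the log2 scale (SE 0.16, edgeR adjusted p = 0.000768) and had a value of 0.37 in MRL (adjusted p = 0.0776). Cebpd, its early partner, had values of -0.26 and -0.60 (adjusted p = 0.555 and 0.205). Srebf1, a regulator of lipid synthesis, had -0.40 in BL6 (adjusted p = 0.126) and fell by 0.65 in MRL (adjusted p = 0.0290). Klf15, a factor made by fat and by muscle, fell by 0.87 and 0.97 (adjusted p = 0.0255 and 0.0241). Klf15 was not called in BL6 without unoperated replicate 2, 3 or 4 or operated replicate 3 or 4 (adjusted p from 0.0508 to 0.0740), or in MRL without unoperated replicate 3 or 4 or operated replicate 1 or 2 (0.0583 to 0.0730). Srebf1 was not called in MRL without unoperated replicate 2 or operated replicate 1, 2 or 3 (0.0641 to 0.0907), was called in BL6 without operated replicate 4 (-0.63, 0.0171), and Cebpb was called in MRL without unoperated replicate 4 (0.54, 0.0200). The median of the list was 0.19 in BL6 and 0.22 in MRL.

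Adipoq, the gene of the fat cell hormone adiponectin, was counted at 5.44, 4.33, 2.80 and 5.74 CPM in unoperated BL6 and at 20.02, 8.13, 25.6 and 110.0 CPM in operated BL6. Replicate 4 was 4.29 times the next operated library, and the lowest operated library still exceeded every unoperated one. This was a log2 fold change of 3.17 (SE 0.69, edgeR adjusted p = 0.00103). Without replicate 4 of both operated groups it was 1.97 (adjusted p = 0.000595). MRL levels went from 6.79, 6.52, 3.999 and 9.45 CPM to 18.4, 18.3, 39.0 and 85.1 CPM. The groups did not overlap, and replicate 4 was 2.18 times the next operated library. The log2 fold change was 2.59 (SE 0.67, edgeR adjusted p = 0.00771) and 1.91 without replicate 4 of both operated groups (adjusted p = 0.000864).

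Of 10 secreted adipocyte proteins listed, Adipoq and Lpl among them, 8 were analysed, and 7 were called higher and 0 lower in each strain. Of all genes tested, 35.1% were called higher in BL6 and 22.3% in MRL. Cfd, the complement protease adipsin, rose by 3.37 after surgery in BL6 and by 2.91 in MRL (log2), and Retn, the hormone resistin, by 2.92 and 3.13 (edgeR adjusted p from 0.000295 to 0.00287). Rbp4, a retinol carrier, rose by 2.74 and 1.26, and the peptide gene Apln by 1.27 and 1.31 (adjusted p from 0.000394 to 0.0469). Without replicate 4 of both operated groups the BL6 values were 2.36 for Cfd, 2.14 for Retn, 1.74 for Rbp4 and 0.66 for Apln, which was then not called (adjusted p = 0.0711). Rbp4 was not called in MRL without any 1 of unoperated replicates 1 to 4 and operated replicates 3 and 4 (0.0568 to 0.118). Cfd showed the library pattern of Adipoq: operated BL6 stood at 123, 51.3, 165 and 565 CPM and operated MRL at 99.8, 100.5, 122 and 281 CPM. Replicate 4 was highest in both. The list's median was 2.77 in BL6 and 1.75 in MRL. In MRL 4 were called without unoperated replicate 2, operated replicate 3 or operated replicate 4.

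Plin1, the perilipin that coats the droplet of mature adipocytes and guards it from lipases, had the lowest level per kb of exon of the 10 genes in all 4 groups. Unoperated BL6 libraries held 1.17, 1.34, 1.32 and 3.03 CPM and operated ones 6.98, 2.79, 9.41 and 45.9 CPM. The groups overlapped, since operated replicate 2 lay under unoperated replicate 4, and operated replicate 4 was 4.88 times the next library. Its log2 fold change was 3.25 (SE 0.87, edgeR adjusted p = 0.00423). Without replicate 4 of both operated groups it was 1.89 (adjusted p = 0.00521), and with limma voom it was 2.72 and not called (adjusted p = 0.0586). In MRL the levels went from 2.57, 2.45, 1.68 and 4.47 CPM to 4.06, 5.48, 15.1 and 50.4 CPM. Operated replicate 1 lay under unoperated replicate 4, and operated replicate 4 was 3.34 times the next library. edgeR gave a log2 fold change of 2.75 (SE 0.85, adjusted p = 0.0170). It was not called with limma voom (adjusted p = 0.0882), without unoperated replicate 3 (0.0517) or without operated replicate 4 (1.56, 0.0930), and with replicate 4 of both operated groups left out it was 1.56 and called (0.0158).

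Cidec promotes the fusion of droplets into the single large droplet of a white fat cell. It was counted at 3.82, 2.85, 2.93 and 3.57 CPM in unoperated BL6 and 14.05, 6.82, 13.9 and 54.3 CPM in operated BL6. No operated library reached down to the unoperated range, and replicate 4 was 3.87 times the next. This was a log2 fold change of 2.76 (SE 0.60, edgeR adjusted p = 0.000924), and 1.81 without replicate 4 of both operated groups (adjusted p = 0.000349). In MRL, unoperated libraries held 3.70, 3.83, 3.10 and 8.02 CPM and operated ones 9.70, 15.3, 20.1 and 47.9 CPM. Replicate 4 was the highest library of each MRL group, and the groups did not overlap. The log2 fold change was 2.32 (SE 0.58, edgeR adjusted p = 0.00663), and 1.69 without replicate 4 of both operated groups (adjusted p = 0.000711).

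Plin4, a perilipin of small droplets that muscle fibers also make, did not follow Plin1 and Cidec. Its levels were 280, 302, 373 and 382 CPM in unoperated BL6 and 389, 492, 133 and 105 CPM in operated BL6. Operated replicates 1 and 2 lay above the unoperated range and replicates 3 and 4 below it. Its log2 fold change was -0.26 (SE 0.37, edgeR adjusted p = 0.552), and it was 0.01 without operated replicate 4. In MRL the levels were 167, 200, 255 and 281 CPM without surgery and 129, 137, 110 and 179 CPM with it. All but operated replicate 4 lay below the unoperated range. The log2 fold change of -0.70 was not called (SE 0.38, edgeR adjusted p = 0.134), whereas it was -0.85 with an adjusted p of 0.0336 without replicate 4 of both operated groups, and it was called in 3 of 17 alternatives. The authors' deposited table gives Plin4 a log2 fold change of -0.97 after surgery in MRL with a false discovery rate (FDR) of 0.0217.

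Plin1, Plin4 and Cidec were among 16 droplet coat and lipase genes listed. In BL6 7 of the 16 were called higher and 4 lower, beside 35.1% and 32.8% of all genes tested. In MRL 5 were called higher and 3 lower, beside 22.3% and 22.7%. These counts are not far from those shares. Plin2, the perilipin of most cell types, had values of -0.12 and 0.01 (edgeR adjusted p = 0.553 and 0.952). Plin5, a perilipin of oxidative muscle, fell by 0.82 in BL6 (adjusted p = 0.00362) and had -0.35 in MRL (adjusted p = 0.187). Plin3 fell by 0.33 and 0.47 (adjusted p = 0.0210 and 0.00671). Cidea, a relative of Cidec that is made in brown fat, rose by 3.44 and 3.26 (adjusted p = 0.00501 and 0.0131) with replicate 4 far above the other operated libraries. Without replicate 4 of both operated groups Cidea was at 1.99 and 1.24 (adjusted p = 9.74e-05 and 0.00442), and without operated MRL replicate 4 alone it was not called in MRL (1.24, 0.141). Plin3 was not called in BL6 without unoperated replicate 1 or 4 or operated replicate 1 or 3 (0.0502 to 0.0712), while without replicate 4 of both operated groups Plin2 was called in BL6 (-0.29, 0.0279) and Plin5 in MRL (-0.45, 0.0298). The list's median was 0.16 in BL6 and 0.05 in MRL, beside 0.04 and 0.01 over all genes tested.

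**Figure D3:**
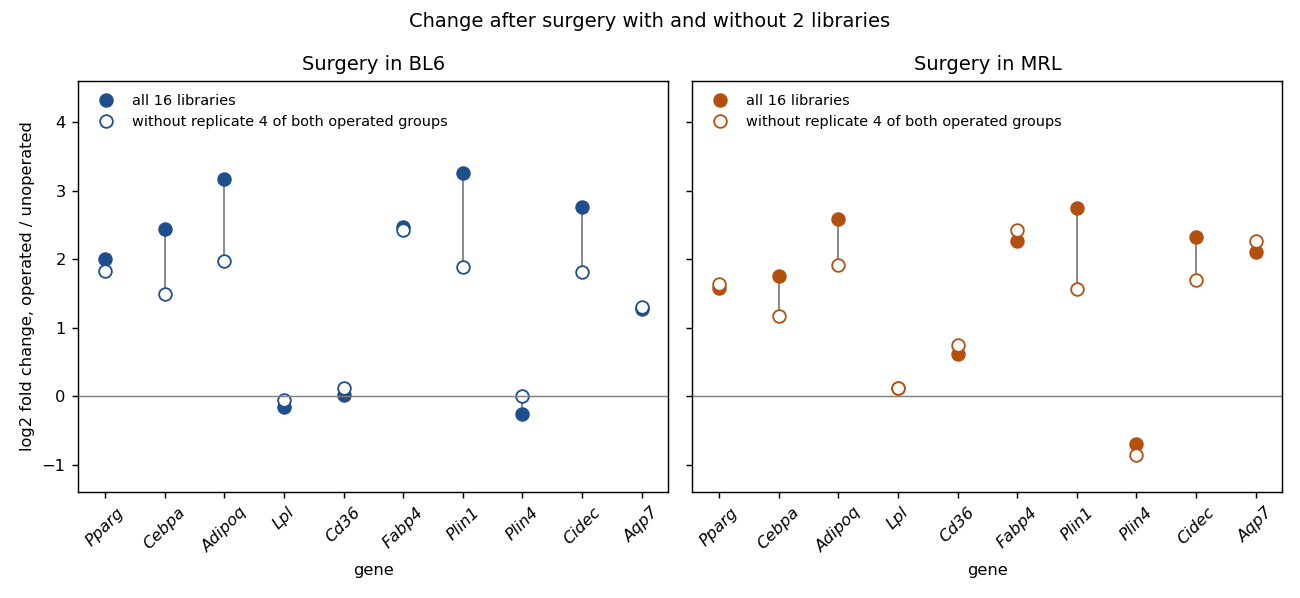
Log2 fold change of each gene after surgery with all 16 libraries (filled) and without replicate 4 of both operated groups (open), in BL6 (left) and MRL (right). Adipoq moves from 3.17 to 1.97 and Plin1 from 3.25 to 1.89 in BL6, whereas Pparg, Fabp4 and Aqp7 stay close to their values.

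Fabp4, the fatty acid carrier of adipocytes and capillary endothelium, was clearly higher after surgery in both strains. Unoperated BL6 held 266, 270, 201 and 213 CPM and operated BL6 1445, 1225, 1160 and 1446 CPM. Unoperated MRL held 356, 296, 254 and 301 CPM and operated MRL 1870, 1368, 1635 and 903 CPM. Operated and unoperated libraries did not overlap in either strain, and operated MRL replicate 4 was the lowest operated library. edgeR gave a log2 fold change of 2.47 in BL6 (SE 0.20, adjusted p = 4.18e-06) and 2.26 in MRL (SE 0.20, adjusted p = 4.12e-05). Over all alternatives it ran from 2.40 to 2.61 in BL6 and from 2.11 to 2.43 in MRL.

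Aqp7 is the channel through which fat cells release glycerol. It was counted at 13.1, 11.7, 10.8 and 8.74 CPM in unoperated BL6 and 29.2, 22.1, 31.0 and 25.4 CPM in operated BL6. In MRL it went from 6.14, 4.80, 5.97 and 5.66 CPM to 33.0, 23.2, 25.2 and 15.5 CPM. The groups were apart in both strains, and operated MRL replicate 4 was again lowest among the operated. This was a log2 fold change of 1.28 in BL6 (SE 0.19, edgeR adjusted p = 6.22e-05) and 2.10 in MRL (SE 0.20, adjusted p = 4.25e-05).

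Cd36, the fatty acid receptor of the cell surface, was high without surgery. BL6 libraries held 412, 348, 358 and 387 CPM unoperated and 461, 439, 330 and 293 CPM operated. These overlapped, with operated libraries on both sides of the unoperated range. The log2 fold change was 0.02 (SE 0.18, edgeR adjusted p = 0.934). MRL libraries held 245, 301, 294 and 311 CPM unoperated and 553, 413, 475 and 314 CPM operated. Operated replicate 4 lay just above the highest unoperated library, and the others were well above. Its log2 fold change was 0.61 (SE 0.18, edgeR adjusted p = 0.0124), and the largest adjusted p over the alternatives was 0.0490, without operated MRL replicate 1.

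Lpl, the lipase that frees fatty acids from blood lipoproteins, was called in neither strain. BL6 held 995, 941, 1040 and 1262 CPM unoperated and 1240, 1045, 768 and 728 CPM operated. MRL held 748, 815, 872 and 963 CPM unoperated and 1041, 832, 885 and 926 CPM operated. The ranges overlapped in both strains, and within operated BL6 replicates 3 and 4 were lower than 1 and 2, as for Plin4 and Cd36. edgeR gave a log2 fold change of -0.16 in BL6 (SE 0.17, adjusted p = 0.397) and 0.12 in MRL (SE 0.17, adjusted p = 0.585).

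Among 15 uptake and carrier genes listed, these 4 included, 14 were analysed. In BL6 6 were called higher and 2 lower, beside 35.1% and 32.8% of all genes tested. In MRL 7 were called higher and 2 lower, beside 22.3% and 22.7%. Gpihbp1, which anchors LPL on capillary endothelium, rose by 1.87 and 1.61 on the log2 scale (edgeR adjusted p = 7.22e-05 and 0.00124). Fabp5, a carrier close to Fabp4, rose by 2.26 and 2.20 (adjusted p = 6.35e-05 and 0.000671). Fabp3, the carrier of muscle fibers, had -0.36 and -0.12 (adjusted p = 0.145 and 0.659), and the transporter gene Slc27a1 had -0.40 and -0.19 (adjusted p = 0.0803 and 0.424). Slc27a1 was called in BL6 without unoperated replicate 1 or operated replicate 1 or 2 (0.0391 to 0.0425). The list's median was 0.06 in BL6 and 0.36 in MRL.

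The enzymes that make fatty acids and triglyceride from precursors moved in both directions. All 13 listed were analysed. In BL6 9 were called higher and 3 lower, beside 35.1% and 32.8% of all genes tested. In MRL 8 were called higher and 3 lower, beside 22.3% and 22.7%. The medians were 1.36 and 0.95. In MRL 6 were called without unoperated replicate 3, and 7 without operated replicate 3 or 4. Gpam, which starts glycerolipid synthesis, fell by 4.23 and 2.07 on the log2 scale (edgeR adjusted p = 8.32e-05 and 0.0123), and by 3.51 in MRL without operated replicate 4 (adjusted p = 1.19e-05). Agpat2, the next step and a gene of fat cells, rose by 1.36 and 1.51 (adjusted p = 0.0225 and 0.0217). Agpat2 was at 0.56 in BL6 and not called without replicate 4 of both operated groups (0.0774), and in MRL it was not called without unoperated replicate 3 (1.41, 0.0630) or operated replicate 4 (0.95, 0.0948). Dgat1, of the last step, rose by 1.44 and 0.80 (adjusted p = 3.75e-05 and 0.00585), whereas Dgat2 had -0.74 and -0.09 (adjusted p = 0.0522 and 0.827). Dgat2 was called in BL6 without operated replicate 4 (-0.88, 0.0409) or unoperated replicate 1 (-0.90, 0.0269), and its MRL value lay above 0 without unoperated replicate 4 or operated replicate 1 or 2.

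Levels of different genes were compared per length, as mean CPM per kb of annotated exon. In unoperated BL6 the order was Cd36 at 104.8 ± 8.13 (SD, n = 4), Lpl at 101.1 ± 13.4, Plin4 at 57.9 ± 8.83 and Fabp4 at 53.0 ± 7.95, and the other 6 lay between 3.92 for Aqp7 and 0.369 for Plin1. Cd36 and Lpl, and Plin4 and Fabp4, differed by less than their SDs. In operated BL6 Fabp4 led at 293.8 ± 33.1 CPM per kb, followed by Cd36 at 106.1 ± 22.8, Lpl at 90.2 ± 23.1, Plin4 at 48.4 ± 33.0 and Adipoq at 29.6 ± 33.7. Fabp4 stood clear of Cd36 there, and the SDs of Cd36 and Lpl and of Plin4 and Adipoq overlapped. In MRL the order led from Lpl at 81.1 ± 8.70, Cd36 at 80.1 ± 8.17 and Fabp4 at 67.2 ± 9.36 without surgery to Fabp4 at 321.6 ± 92.4, Cd36 at 122.2 ± 28.1 and Lpl at 87.9 ± 8.503 with it. Lpl and Cd36 differed by less than their SDs without surgery and by more with it. Below them in operated MRL came Adipoq at 29.1 ± 22.8, Plin4 at 23.997 ± 5.05 and Cidec at 12.5 ± 9.13. Adipoq and Plin4 differed there by less than the SD of Adipoq, and Plin4 and Cidec by more than either SD. Plin1 was last in all 4 groups, with 4.04 ± 4.66 CPM per kb in operated MRL. The length is that of all annotated exons of a gene together, which for Fabp4 is its whole span of 4489 bases, so a level per kb of a shorter transcript is understated.

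**Figure D4:**
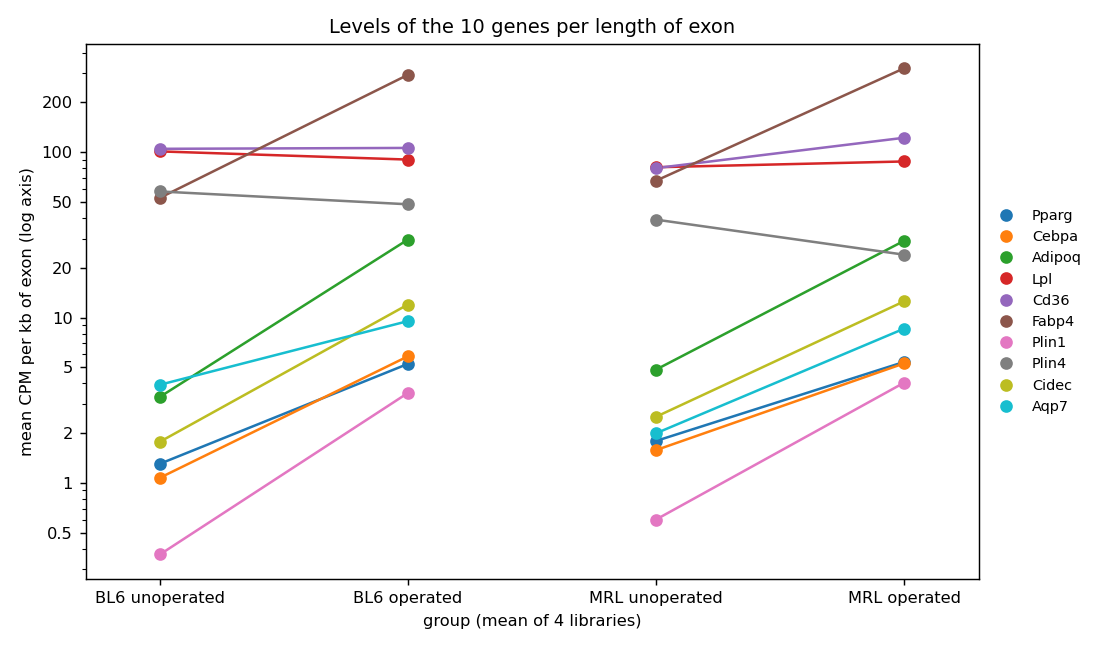
Mean CPM per kb of exon for each gene in the 4 groups on a log axis (means of 4 libraries; lines join the 2 groups of a strain). Fabp4 lies below Cd36 and Lpl without surgery and above them with it in both strains, and Plin1 is lowest throughout. The length used for Fabp4 is its whole span of 4489 bases, so its place among the genes depends on that length.

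Before surgery the strains were called different for 1 of the 10 genes, against 10.4% of all genes tested. Aqp7 was lower in every unoperated MRL library than in every unoperated BL6 library, with a log2 difference, MRL over BL6, of -0.98 (SE 0.19, edgeR adjusted p = 0.00319). The call held in all 16 alternatives, with adjusted p up to 0.0253. Cd36 was also lower in every unoperated MRL library, with -0.39 (SE 0.18), and was not called (edgeR adjusted p = 0.187). Differences of the other 8 genes ran from -0.57 for Plin4 to 0.71 for Plin1.

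After surgery 0 of the 10 genes were called different between the strains by edgeR, against 12.9% of all genes tested, with 1 at an unadjusted p under 0.05. DESeq2 called 1 and limma voom 0. That gene was Plin4, at a log2 difference of -1.01 (SE 0.38, edgeR adjusted p = 0.0951). Without operated BL6 replicate 4 it was -1.28 and called (adjusted p = 0.0153), and the authors' deposited table gives -1.15 with an FDR of 0.0269. Aqp7, which differed before surgery, then stood at 26.9 ± 3.97 CPM in BL6 and 24.2 ± 7.17 CPM in MRL (SD, n = 4), a log2 difference of -0.15 (SE 0.19, edgeR adjusted p = 0.644). The 4 genes led by replicate 4 had differences from -0.14 for Cebpa to 0.20 for Plin1, with SEs from 0.55 to 0.78.

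The test of whether surgery changed a gene differently in the strains, the interaction, called 0 of the 10 genes in edgeR, DESeq2 and limma voom, with 2 at an unadjusted p under 0.05 in edgeR, where 0.248% of all genes were called. Those were Aqp7, at 0.82 higher in MRL (SE 0.27, edgeR adjusted p = 0.192), and Cd36, at 0.59 (SE 0.25, adjusted p = 0.277). Cd36 was thus called in MRL and not in BL6, and the difference between the strains was not called. Fabp4 had an interaction of -0.21 (SE 0.27) and Pparg one of -0.42 (SE 0.34). Adipoq, Plin1, Cidec and Cebpa had values from -0.70 to -0.44, which turned to values from 0.27 to 0.87 without operated BL6 replicate 4. In the authors' deposited table these 4 genes have log2 fold changes from 1.71 to 2.29 in BL6 and from 2.12 to 3.05 in MRL, the reverse of the order above. That table puts 7 of the 10 past an FDR of 0.05 for surgery in BL6, 9 in MRL, 1 between unoperated and 1 between operated strains.

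Within groups some of the genes varied together, without forming clearly separate sets. Deviations of log2 CPM from the group mean were correlated over the 16 libraries, which share their depth and tissue makeup, as a description without a test. Adipoq had r = 0.956 with Cebpa, 0.950 with Plin1 and 0.950 with Cidec, and without replicate 4 of both operated groups, over 14 libraries, these were 0.865, 0.871 and 0.835. Plin1 and Cidec had 0.942 (0.820 over 14 libraries). Cebpa had 0.887 with Plin1 and 0.905 with Cidec, which fell to 0.666 and 0.696 over 14 libraries. Pparg had r of 0.297 to 0.400 with the 4, and of 0.153 to 0.441 over 14 libraries. With Lpl, Plin4 and Cd36 Pparg had 0.320, 0.0579 and 0.181 over 16 libraries and 0.694, 0.516 and 0.505 over 14, so these values rest on replicate 4 of the operated groups. Lpl and Plin4 had 0.818 (0.773 over 14 libraries) and Lpl and Cd36 0.687 (0.819). Cd36 and Plin4 had 0.475 (0.639), and Fabp4 and Aqp7 0.743 (0.532). Among 9649 genes with a mean of at least 5 CPM, those most like the mean of Adipoq, Plin1 and Cidec were Trarg1 (r = 0.976), Agpat2 (0.967), Tmem45b (0.967), Cdo1 (0.959) and Hp (0.955), with 0.928, 0.877, 0.881, 0.890 and 0.850 over 14 libraries. Those most like Pparg were Gdi2, which came first, Hhipl1 (0.819), Ctsl (0.757), Slc30a5 (0.750) and Mapre1 (0.738).

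Markers of mature white adipocytes rose after surgery, as the 4 genes did. Of 15 listed, Adipoq, Plin1 and Cidec among them, 12 were analysed. All 12 were called higher in both strains, where 35.1% (BL6) and 22.3% (MRL) of all genes tested were. Their medians were 2.84 and 2.45. Apart from Adipoq, Plin1 and Cidec, 9 were analysed, and all 9 were called higher in each strain. The medians and the sums include Adipoq, Plin1 and Cidec, so they are not independent of the 4 genes. The summed level of all 12 was 93.0 to 116 CPM in unoperated BL6 and 220 to 1250 CPM in operated BL6. In MRL it was 86.4 to 155 CPM in unoperated libraries and 276 to 979 CPM in operated ones. The highest sum of each operated group was that of replicate 4. Without replicate 4 of both operated groups 11 were called in BL6 and 12 in MRL. Over all alternatives the count called ran from 9 to 12 in BL6 and from 10 to 12 in MRL. Lipe, the hormone-sensitive lipase, rose by 1.17 and 1.27 (edgeR adjusted p = 0.00149 and 0.00300), and Pck1, of glycerol synthesis in fat, by 3.52 and 3.06 (adjusted p = 0.00242 and 0.00993). Pck1 was at 2.40 and 2.04 without replicate 4 of both operated groups (0.00326 and 0.00842), and without unoperated MRL replicate 4 at 3.69 in MRL. Pck1 stood at 28.3, 12.7, 21.8 and 117 CPM in operated BL6 and at 14.9, 22.8, 65.1 and 175 CPM in operated MRL.

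Ucp1 and Cidea, genes of brown fat, were highest in the same libraries. Ucp1, the heat-producing uncoupling protein of brown adipocytes, stood at 4.12, 0, 0.573 and 41.1 CPM in operated BL6 and at 0.162, 0.243, 2.20 and 83.2 CPM in operated MRL, against 0 to 0.588 CPM in the unoperated libraries. A count of 0 in operated BL6 replicate 2 allows up to 0.116 CPM. Replicate 4 of the operated groups held 42.0 (BL6) and 40.2 (MRL) CPM of Cidea, and the other operated libraries 1.80 to 6.82 CPM. Dio2, the thyroid hormone activating enzyme, rose by 2.37 and 2.02 (edgeR adjusted p = 0.00113 and 0.00712), and Prdm16, a brown fat regulator, by 0.73 in BL6 (0.00710) with 0.36 in MRL (0.195). Dio2 was at 1.61 in BL6 without replicate 4 of both operated groups (0.00449), and in that fit Prdm16 was called in MRL (0.52, 0.0452). Of 8 listed markers 7 were analysed. In BL6 6 were called higher and 1 lower, beside 35.1% and 32.8% of all genes tested. In MRL 4 were called higher and 1 lower, beside 22.3% and 22.7%. There 3 were called without unoperated replicate 3 or 4 or operated replicate 1. The summed level of the 7 was lowest in replicate 4 of each operated group, at 1587 CPM in BL6 and 1322 CPM in MRL. It was led by Cox8b and Cox7a1, with means of 1164 and 971 CPM in operated BL6. Ucp1 and Cidea had means of 11.5 and 14.5 CPM there, so the sum does not follow them. Unoperated BL6 already held means of 609 CPM of Cox8b and 516 CPM of Cox7a1. The part of brown fat cells in the levels of the 10 genes was not tested.

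**Figure D5:**
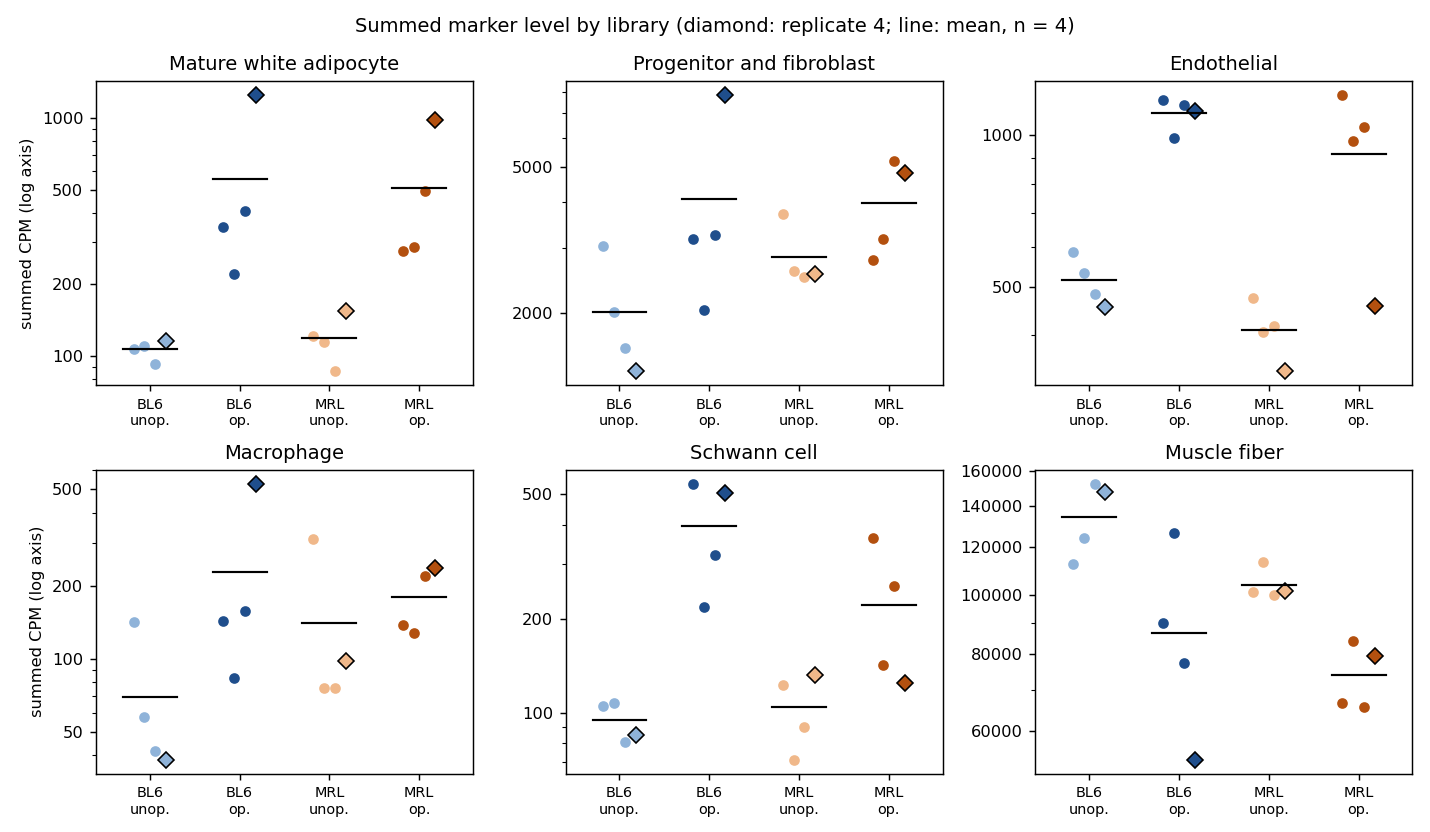
Summed CPM of 6 marker lists in each library on a log axis, by strain and surgery (diamonds are replicate 4, lines the means of 4 libraries). Replicate 4 has the highest adipocyte sum in both operated groups, while in operated MRL it has the lowest endothelial sum, 457 CPM against 976 to 1204 in the other 3.

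Counts for markers of other cells, here and below, stand beside shares of all genes tested. In BL6 35.1% of all genes were called higher and 32.8% lower. In MRL these shares were 22.3% and 22.7%. Of 12 progenitor and fibroblast markers, 8 were called higher in BL6 and 4 in MRL, and 0 lower. In MRL 2 were called without unoperated replicate 2, 3 or 4, 1 without operated replicate 3, and 7 without unoperated MRL replicate 1 and operated BL6 replicate 4 together. Pdgfra, which defines fibro-adipogenic progenitors, had 0.23 and 0.25 (edgeR adjusted p = 0.505 and 0.510), and Ly6a rose by 1.41 and 1.02 (adjusted p = 0.000169 and 0.00499). The matrix genes Dcn and Lum had 0.32 and 0.80 in BL6 and 0.24 and 0.66 in MRL, not called. Without operated BL6 replicate 4 the BL6 values of Pdgfra and Lum were -0.08 and -0.11, and without operated BL6 replicate 2 Lum was called there (1.11, 0.0253). The sum of the list was 1388 to 3035 CPM in unoperated BL6, 2031 to 7841 in operated BL6, 2506 to 3720 in unoperated MRL and 2790 to 5178 in operated MRL. The highest of these was operated BL6 replicate 4.

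Endothelial markers were called higher for 6 of 8 in BL6 and 7 of 8 in MRL, and lower for 0. Pecam1 rose by 1.28 and 1.07, Cdh5 by 1.09 and 1.27 and the receptor gene Tek by 0.80 and 1.05 (edgeR adjusted p from 7.85e-05 to 0.00513), while Kdr rose by 1.11 in MRL (0.00534) with 0.53 in BL6 (0.0858), where it was called without operated replicate 2 (0.69, 0.0284) or without replicate 4 of both operated groups (0.52, 0.0403). Summed levels were 456 to 587 CPM and 987 to 1178 CPM in unoperated and operated BL6, and 339 to 475 CPM and 457 to 1204 CPM in MRL. Operated MRL replicate 4, the library of 457 CPM, was also the lowest of its group for Fabp4, Cd36 and Aqp7 and in the mitochondrial share. The part of endothelial cells in the rise of Fabp4 was not tested.

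Macrophage markers were called higher for 5 of 8 in BL6 and 1 of 8 in MRL, and for 0 in MRL without any 1 of unoperated replicates 2, 3 and 4 and operated replicates 1, 3 and 4, and for 2 without unoperated replicate 1. Cd68 rose by 2.01 and Csf1r by 1.87 in BL6 (edgeR adjusted p = 0.00312 and 0.00574), with 0.62 and 0.62 in MRL (0.305 and 0.332), while Adgre1 had 2.18 and -1.54 and Itgam 1.92 and -1.16, not called. Without replicate 4 of both operated groups the BL6 values were 1.17 for Cd68, 0.92 for Csf1r, 1.09 for Adgre1 and 1.21 for Itgam. Without unoperated MRL replicate 1 the MRL values of Adgre1 and Itgam turned to 1.39 and 1.30 (0.0937 and 0.0669), and without unoperated BL6 replicate 1 their BL6 values were 2.79 and 2.58 (0.0531 and 0.0439). Unoperated MRL replicate 1 held a macrophage sum of 312 CPM against 75.5 to 97.5 in the other 3, and operated BL6 replicate 4 held 528 CPM against 83.4 to 157. With both of those libraries left out, 6 of 8 were called in MRL, and the 10 genes had 7 calls in BL6 and 9 in MRL, with Plin4 added. Schwann cell markers were higher for 6 of 6 in BL6 and 5 of 6 in MRL, where 3 were called without unoperated replicate 2 or 3 or operated replicate 1 or 3. Mbp rose by 1.93 and 1.15 and Pmp22 by 2.18 and 1.08 (edgeR adjusted p from 4.55e-05 to 0.0205). Mbp was not called in MRL without unoperated replicate 2 or 3 or operated replicate 1 or 3 (0.0593 to 0.0969).

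Muscle fiber markers were called higher for 1 and lower for 4 of 10 in BL6 and lower for 3 in MRL. Those counts of lower calls are not far from the shares of all genes called lower, 32.8% in BL6 and 22.7% in MRL. In BL6 2 were called without unoperated replicate 4 and 3 without unoperated or operated replicate 3, and in MRL 1 without unoperated replicate 2 or 3 or operated replicate 1 or 3. Acta1, the skeletal actin, fell by 0.99 and 0.76, and Ckm, the muscle creatine kinase, by 0.63 and 0.60 (edgeR adjusted p from 0.000848 to 0.0467). Myh4, the fast myosin, fell by 1.18 in BL6 (0.0176) and had -0.82 in MRL (0.106), and Myh1 had -0.34 and 0.30 (0.139 and 0.227). Ckm was not called in BL6 without unoperated replicate 3 or 4 or operated replicate 1, 3 or 4 (0.0511 to 0.0718), or in MRL without any 1 library other than operated replicate 4 (0.0593 to 0.123). Myh4 was not called in BL6 without unoperated replicate 4 or operated replicate 3 (0.0529 and 0.0556), and Myh1 was called there without operated replicate 1 (-0.49, 0.0494). The sum of the list was 112414 to 152402 CPM in unoperated BL6 and 53748 to 126244 in operated BL6, lowest in replicate 4 and highest in replicate 2. It was 100093 to 113273 CPM in unoperated MRL and 65505 to 84244 in operated MRL. Operated BL6 replicate 2 was also the lowest of its group for Cebpa, Adipoq, Plin1 and Cidec and the highest for Plin4. The part of tissue makeup in the levels of the 10 genes was not tested.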

How the data were processed

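RNA of minced muscle was sequenced in 16 libraries, per the labels' protocols. The submitters' processing notes name FastQC, STAR, edgeR and the build mm10, without versions; the counting program, annotation and use of strand are not given in the sources used here. The authors deposited whole-number counts per gene, not normalized, and a table that gives log2 fold changes with p-values and false discovery rates, per the file headers. Groups came from strain and surgery in the labels. In R 4.3.3, edgeR 4.0.16 scaled counts by TMM, filterByExpr (minimum count 10) removed 1 gene, and the quasi-likelihood fit took all 16 libraries, each group having its own mean. From it came 5 comparisons, adjusted by Benjamini-Hochberg over 11709 genes and called at 0.05. The standard errors given are the absolute log2 fold change divided by the square root of the F statistic. DESeq2 1.42.0, limma 3.58.1 voom, other scalings, a replicate block and left-out libraries were alternatives; leaving out replicate 4 of both operated groups together was added after seeing the data. No pair of replicates agreed within sampling noise. The script was tested on simulated data. The 10 genes and 12 marker lists were chosen with earlier results of these data known. Named are all 10 genes, the first 4 analysed other genes of each list, and the 5 genes most alike in 2 rankings, except that some genes the rule selects are not reported here; Cox8b, Cox7a1 and Hdgfl2 were named after their values or positions were seen, and listed genes without a value were not analysed here. Symbols were matched to GENCODE M21 by ID (11708 of 11710).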

Additional observations from a re-analysis of the deposited data

Results flagged for a closer look

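In 5 of the 40 sets of 4 libraries, 1 library stood further from the others than the 95% limit of Dixon's test for an outlier allows. Chance alone marks about 1 in 20 sets when sets are independent. The 40 sets are the 10 genes in the same 4 groups, and some genes vary together. The count of 5 therefore cannot be judged against that rate. In all 5 sets the library was replicate 4 of its group. Pparg stood at 4.84 CPM in unoperated BL6 replicate 4, against 3.42 to 3.66 CPM in the other 3. Plin1 stood at 3.03 CPM in unoperated BL6 replicate 4, against 1.17 to 1.34 CPM, and at 45.9 CPM in operated BL6 replicate 4, against 2.79 to 9.41 CPM. Cidec stood at 54.3 CPM in operated BL6 replicate 4, against 6.82 to 14.05 CPM, and at 8.02 CPM in unoperated MRL replicate 4, against 3.10 to 3.83 CPM. Replicate 4 was the highest library for 5 of the 10 genes in BL6 and 7 in MRL without surgery, and for 6 and 5 with it.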

How the results depend on the processing

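Of the alternative values of the log2 fold changes of the 10 genes, 843 kept their direction and side of the threshold, 10 lost a call, 10 gained one and 47 changed sign. The counts of 7 and 8 called after surgery ran from 6 to 7 in BL6 and from 6 to 9 in MRL; the interaction called 0 in every alternative. With the replicate number as a block the interaction called 2 genes of 11709, against 29 without it, and the block changed no member's call; same-numbered samples had r from -0.474 to 0.453 across genes (means by comparison from -0.141 to 0.165), not all over 0.1, so the numbers were not taken as pairs, although 1 same-numbered pair of operated libraries reached 0.453. The interaction called 14 genes with library totals, 250 with DESeq2, 58 without replicate 4 of both operated groups and 1 to 69 on leaving out each library; surgery in MRL called 3490 to 6145 on leaving out each library. Fitting only the groups compared gave 2438 genes and 3 of the 10 between unoperated strains, and 575 between operated strains. Between operated strains 1 of the 10 was called with DESeq2, without the pair of libraries that stand apart (unoperated MRL replicate 1 and operated BL6 replicate 4) and without replicate 4 of both operated groups, and 0 to 1 on leaving out each library. Library totals in place of TMM moved the median of all genes from 0.04 to 0.18 for surgery in BL6 and from 0.01 to 0.15 between unoperated strains, and the higher and lower calls between unoperated strains from 588 and 628 to 742 and 313, and between operated strains from 890 and 617 to 994 and 383.

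Signs changed as follows, the cause not being tested. After surgery in BL6, Cd36 was -0.00847 with only the groups compared and -0.0876 to 0.12 on leaving out each library, and Plin4 was 0.00823 without the pair that stands apart, 0.00820 without replicate 4 of both operated groups, and -0.68 to 0.00824 on leaving out each. The interaction without that pair was 0.44 for Cebpa, 0.64 for Adipoq, 0.84 for Plin1 and 0.43 for Cidec; on leaving out each library it ran from -1.30 to 0.27, -1.26 to 0.63, -1.70 to 0.87 and -1.08 to 0.52. Fabp4's interaction was 0.00615 without replicate 4 of both operated groups. Between operated strains, library totals gave 0.0534 for Lpl and -0.0124 for Cidec; Cebpa and Adipoq were 0.0522 and 0.29 with limma voom, 0.00720 and 0.21 with the replicate block, 0.82 and 1.18 without the pair, and 0.22 and 0.49 without replicate 4 of both operated groups. On leaving out each library that comparison ran from -0.14 to 0.21 for Pparg, -0.74 to 0.82 for Cebpa, -0.72 to 1.18 for Adipoq, -0.14 to 0.12 for Lpl, -0.0187 to 0.29 for Fabp4, -1.01 to 1.57 for Plin1, -0.58 to 1.02 for Cidec and -0.34 to 0.00130 for Aqp7.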
